A study of Mus musculus with 2 samples.

Results

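The genes described here are those that encode the proteins of the cytosolic ribosome. They were taken from the gene list of the count matrices as every row whose symbol starts with Rpl or Rps followed by a digit, together with Rplp0, Rplp1, Rplp2 and Rpsa. The 10 symbols that start with Rps6k, which encode kinases, and the 5 rows whose symbol contains -ps were left out. This left 86 of 32285 genes, 52 of them named for the large subunit and 34 for the small subunit. The rule also takes in Rps19bp1, whose product binds a ribosomal protein rather than being one, and several divergent copies such as Rpl3l and Rps27l. It misses Fau, which encodes a ribosomal protein fused to a ubiquitin-like protein.

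A ribosome consists of a small subunit, which reads the messenger RNA, and a large subunit, which joins the amino acids. Nearly every cell transcribes the whole set of ribosomal protein genes, and cells that grow or are poised to divide usually hold more of these messages than short-lived, terminally differentiated cells such as neutrophils. Many of the messages start with a run of pyrimidines, the 5′ terminal oligopyrimidine motif, through which their translation responds to nutrient and growth signals.

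The samples were 2 droplet libraries (10x Genomics Chromium) from BALB/cAnNCrl mice with liver metastases of 4T1, a mammary carcinoma line of the same strain. The leukocytes had been collected 5 days after treatment with vehicle, or with a low or a high dose of CBL0137 (amounts not given in the labels), a DNA-binding compound that traps the histone chaperone FACT on chromatin. According to the methods of the study the compound was given by hepatic arterial infusion, the cells were isolated on CD11b magnetic beads, and 2 mice were pooled in each group. One library was labelled liver and the other spleen (the liver-labelled and the spleen-labelled library), and in each the hashtag antibodies A0301, A0305 and A0310 marked the vehicle, low dose and high dose cells. Each group was therefore 1 pooled sample in each library, no test across animals was possible, and every interval below covers counting error only. Reads had been collapsed to unique molecular identifiers (UMIs), so a level counts molecules and was not divided by gene length.

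Of 9591 barcodes in the liver-labelled library, 8435 carried 1 hashtag, and of 4830 barcodes in the spleen-labelled library, 2988 did. These assigned cells held 68667953 and 28272132 UMIs, and 15 barcode sequences occurred in both libraries. The tissue labels went against the transcripts. Clec4f, the lectin of Kupffer cells, was at 0 CPM (UMIs scaled to a total of 1000000) in the liver-labelled library and at 124.5 CPM in the spleen-labelled library, albumin (Alb) at 0 and 19.4 CPM, and Stab2 of liver sinusoidal endothelium at 0.262 and 31.2 CPM, while a list of B cell genes summed to 2183 and 495 CPM. The deposited files of each sample also carry the name of the other tissue. Each library is therefore named by its label, with no statement on its tissue. T cell-like and B cell-like cells were present in both, beside the CD11b bead isolation stated in the methods.

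Bases around a listed start of some of these genes are shown because the pyrimidine run is a feature that the selection did not use. Each stretch covers the 10 bases before and the 20 bases from the annotated start, on the strand of the gene, from RefSeq (GRCm38.p6), and capitals mark a run of at least 8 bases C or T that reaches into the 5 bases before to 15 bases after the start. Rps24 had the most UMIs of all 86 genes in the liver-labelled library, Rps9 took its largest part in neutrophil-like cells and Rps27 in lymphoid cells, while Rpsa, Rps2 and Rpl37 lay at the ends of the high dose comparison in neutrophil-like cells. The stretches lie at chr14:24490668-24490697 (plus strand) for Rps24, chr7:3704031-3704060 (plus) for Rps9, chr3:90213629-90213658 (minus) for Rps27, chr9:120127756-120127785 (plus) for Rpsa, chr17:24720053-24720082 (plus) for Rps2 and chr15:5116603-5116632 (plus) for Rpl37.
Rps24: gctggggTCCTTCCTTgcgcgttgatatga
Rps9: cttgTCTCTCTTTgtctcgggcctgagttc
Rps27: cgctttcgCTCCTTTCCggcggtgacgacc
Rpsa: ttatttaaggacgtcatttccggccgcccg
Rps2: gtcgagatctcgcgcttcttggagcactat
Rpl37: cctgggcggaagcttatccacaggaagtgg

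Such a run was found for 27 of the 66 members with a listed start (40.9%), and for 4049 of 27025 genes in all (15.0%). The first 3 sequences hold a run and the last 3 do not, a split that rests on the genes picked. Rps27, Rps27l and Rpl4 also lay at the ends of that high dose comparison in the liver-labelled library, and each holds a run. The listed start is not always the start of the gene position. The Rps2 stretch lies inside its gene (chr17:24718116-24721929), and so does that of Rps24 (chr14:24487125-24496959). That of Rpl37 ends before its gene begins (chr15:5116645-5119140). A start that is annotated away from the used one moves the window. The presence or absence of a run thus describes these letters only.

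All but 1 of the 86 genes were detected. Rpl10l, a copy of Rpl10 known from testis, had 0 UMIs in both libraries, which over 68667953 and 28272132 UMIs allows at most 3 counts in each. Rpl39l, likewise known from testis, had 25 and 45 UMIs. Rpl3l, the copy of Rpl3 best known from heart and skeletal muscle, had 638 and 189 UMIs. Several genes among those with most UMIs over both libraries stood far above these. Rps24 (chr14:24487125-24496959) reached 5430 CPM in the liver-labelled library and 3639 CPM in the spleen-labelled library, Rps29 4891 and 3722 CPM, Rpsa, the laminin receptor-like protein of the small subunit, 4015 and 4155 CPM, and Rps27a, made as a fusion with ubiquitin, 3968 and 3907 CPM. The 20 leading members supplied 40.4% and 41.1% of all ribosomal protein UMIs, so no single gene carried the total. Many members have near-identical processed copies elsewhere in the genome, and the 5 excluded -ps rows held 4247 and 1800 UMIs, or 0.0333% and 0.0389% of the member UMIs, so levels of different members are uncertain to the extent that reads were shared.

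The ribosomal protein genes supplied 18.6% of the UMIs of assigned cells in the liver-labelled library and 16.4% in the spleen-labelled library. Cells were spread widely around these values. The cell median was 20.9% and 10.1%, and the 5th and 95th percentiles were 2.26% and 44.6% in the first library and 1.78% and 31.7% in the second. Barcodes without a hashtag gave 17.3% and 15.4%, and those with several hashtags, which were left out as doublets, 17.5% and 15.0%.

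The share of UMIs separated the cell types far more than it separated the treatment groups. Classes were set by clusters whose raised genes matched marker lists, and the ribosomal protein genes were kept out of the genes used for clustering. Among vehicle cells of the liver-labelled library, T cell-like cells (593 cells) gave 38.9%, B cell-like cells (528) 31.3%, stem and early progenitor-like cells (40) 29.3%, macrophage-like cells (63) 25.8%, dendritic-like cells (23) 23.9%, monocyte-like cells (159) 21.9%, NK cell-like cells (33) 20.8%, granulocyte progenitor-like cells (109) 12.8% and neutrophil-like cells (1422) 5.45%. T and B cell-like cells and the stem and early progenitor-like cells thus stood at the top of these and the neutrophil-like cells at the bottom. A plasma cell-like class of 3 vehicle cells was at 11.2%. The spleen-labelled library had B cell-like cells (32) at 30.9%, granulocyte progenitor-like cells (65) at 26.1%, T cell-like cells (59) at 24.4%, dendritic-like cells (72) at 22.7%, monocyte-like cells (75) at 19.7%, macrophage-like cells (57) at 17.6%, endothelial-like cells (33) at 11.2%, neutrophil-like cells (362) at 9.22% and hepatocyte-like cells (57) at 4.19%. The neutrophil-like value of the spleen-labelled library includes, as 67 of the 362 cells, a cluster led by Cebpe with a median of 19650 UMIs over all groups, a share of 14.1% and 6 neutrophil beside 5 granulocyte progenitor markers raised. The other clusters with at least 20 vehicle cells lay between 4.61% and 6.22%, and the median over cells of the class was 4.81%. The same cells weigh on the parts given below for this class. The hepatocyte-like vehicle cells had 75.2% of their UMIs from the mitochondrial genome. Without mitochondrial genes in the total their share was 16.9%, above the endothelial-like (13.5%) and neutrophil-like cells (9.53%). Their place at the bottom thus held only with mitochondrial UMIs in the total.

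**Figure D1:**
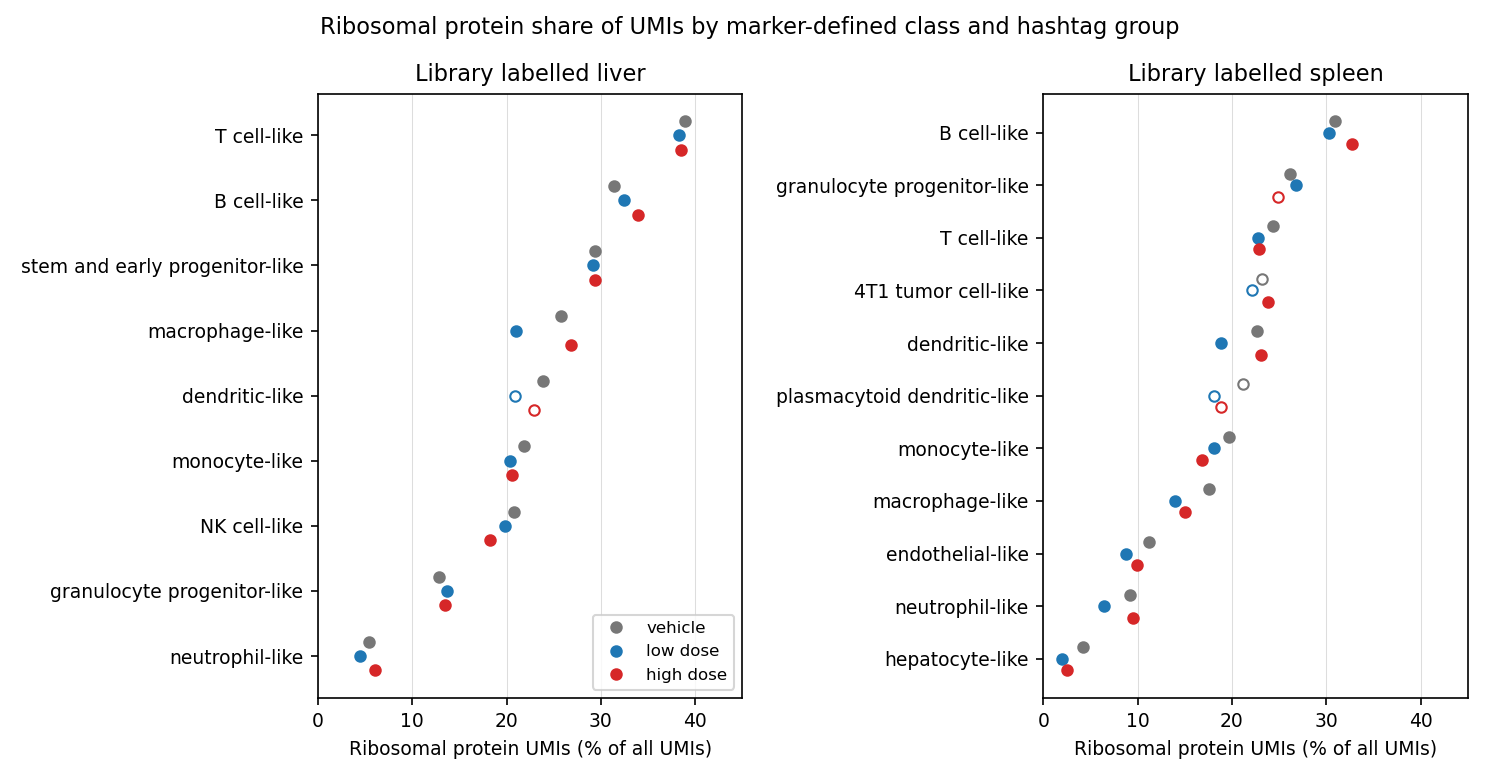
Ribosomal protein UMIs as a percentage of all UMIs (horizontal axis) in each marker-defined class (rows), with 1 point for each of the vehicle, low dose and high dose groups in each library; hollow points rest on fewer than 20 cells. Classes span from 5.45% in neutrophil-like to 38.9% in T cell-like vehicle cells of the liver-labelled library, and the points of 1 class mostly lie close together.

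The order of the classes was not the same in both libraries. T cell-like cells led in the liver-labelled library at 38.9% and stood at 24.4% in the spleen-labelled library, where their clusters led with Gzma, Ccl5 and Gzmb of cytotoxic cells or with Il7r and Lef1. Granulocyte progenitor-like cells gave 12.8% in the one and 26.1% in the other, but their clusters differed. That of the liver-labelled library was led by Elane, Prtn3 and Fcnb, with neutrophil as the next list (4 markers raised), and that of the spleen-labelled library by Ctsg, Mpo and Myb, with stem and early progenitor as the next list (6 raised). No difference between the libraries within 1 stage can be read from these values. B cell-like cells, at 31.3% and 30.9%, differed little.

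Nearly every member shared the contrast between T cell-like and neutrophil-like vehicle cells. A member was counted as past the fold when its log2 ratio of CPM was at least 0.32 or at most -0.32 and it had at least 50 UMIs over both groups. In the liver-labelled library 83 of 84 members were higher in T cell-like cells (64.8% of all genes tested were), with a median log2 ratio of 3.00 against 0.94 over all genes. The spleen-labelled library gave 81 of 83 members (57.8% of all genes tested), with a median of 1.43 against 0.57. Rps24, of the small subunit, was at 1582 CPM in neutrophil-like and 13428 CPM in T cell-like cells of the first library and at 2400 and 6580 CPM in the second. The one exception in the liver-labelled library was Rpl3l.

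Within the ribosomal protein total, single members took unequal parts in different classes. Parts are given as UMIs per 1000 ribosomal protein UMIs in vehicle cells, over the 6 classes of each library with at least 50000 ribosomal protein UMIs, a limit set after seeing the data. Of 77 members with at least 200 UMIs in each class in the liver-labelled library, 17 differed more than 2-fold between their highest and lowest class, and of 76 in the spleen-labelled library, 8 did. The median log2 range over members was 0.56 and 0.42, so most members kept a similar part in all classes.

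Rps27, a small-subunit protein with a zinc finger, had the widest range in the liver-labelled library among the members with at least 200 UMIs in every class, while Rps27l, Rps27rt and Rpl7l1, with fewer, had wider ones. It took 23.0 per 1000 in B cell-like and 21.7 in T cell-like cells, 14.6 in neutrophil-like cells and 6.27 in granulocyte progenitor-like cells. The spleen-labelled library had it at 15.8 in T cell-like and 6.95 in granulocyte progenitor-like cells, so this pair of classes had the same order. Rps9, which binds early in the assembly of the small subunit, ran the other way, at 56.2 per 1000 in neutrophil-like and 15.4 in T cell-like cells of the liver-labelled library. The spleen-labelled library had it at 29.1 in neutrophil-like, 26.1 in monocyte-like, 16.9 in T cell-like and 14.4 in granulocyte progenitor-like cells. The 56.2 of the liver-labelled library was the largest part of any of these classes among the 5 members with the widest ranges there. Rpl12, at the base of the stalk of the large subunit, took 18.1 per 1000 in T cell-like and 5.41 in neutrophil-like cells, and 14.1 and 7.02 in the spleen-labelled library. Rps2, which lies at the messenger entry of the small subunit, was at 12.5 in granulocyte progenitor-like and 4.02 in T cell-like cells. Rpl41, the smallest ribosomal protein, was at 35.3 in granulocyte progenitor-like, 34.4 in neutrophil-like and 12.0 in T cell-like cells. Among the widest ranges in the spleen-labelled library were also Rpl13a (14.9 in T cell-like, 6.29 in neutrophil-like cells), Rpl4 (5.47 in dendritic-like, 2.40 in neutrophil-like cells) and Rpl10 (9.54 in monocyte-like, 4.64 in neutrophil-like cells), all of the large subunit. Rpl4 and Rpl10 thus had their lowest part in neutrophil-like cells of that library. In the liver-labelled library this held for Rpl4 (2.41) but not for Rpl10, which was at 7.26 in neutrophil-like cells and lowest in T cell-like cells (6.65).

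**Figure D2:**
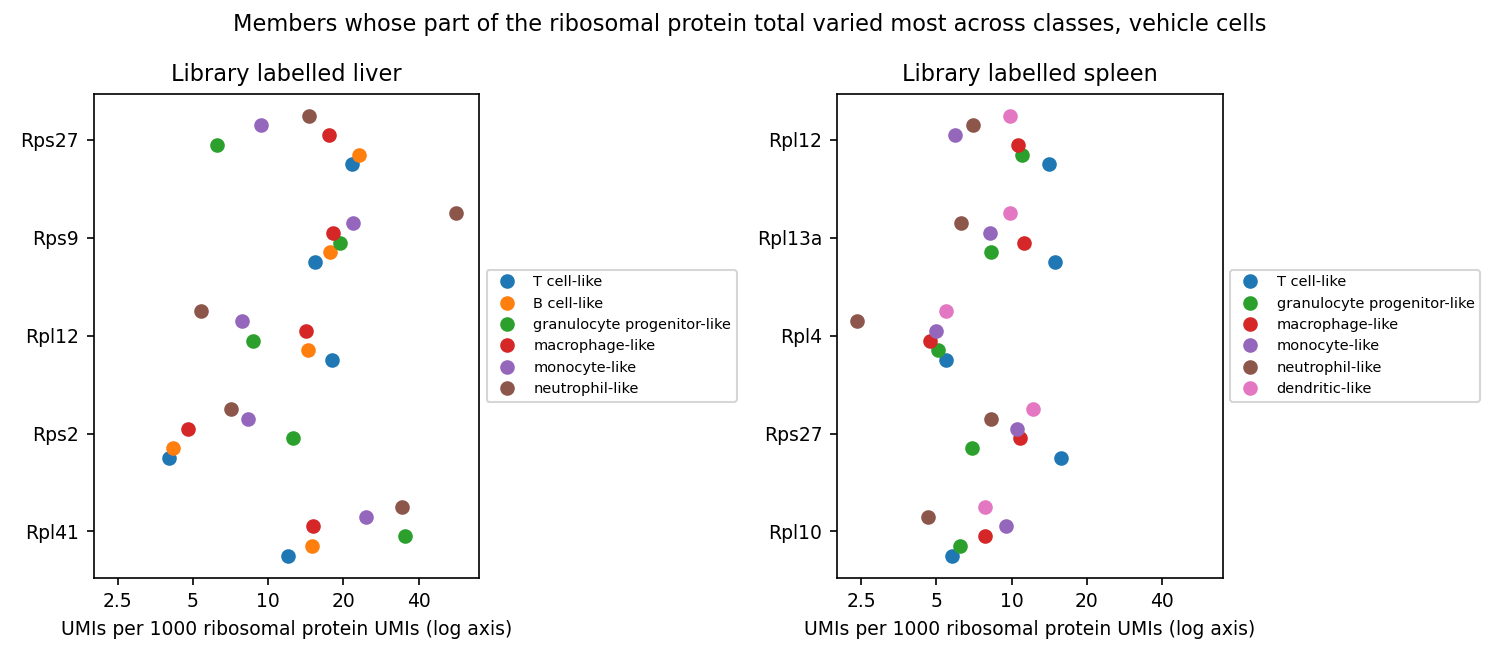
UMIs per 1000 ribosomal protein UMIs (horizontal log axis) of the 5 members whose part varied most over 6 classes of vehicle cells in each library, with 1 coloured point per class. Rps9 stands at 56.2 in neutrophil-like cells and at 15.4 in T cell-like cells of the liver-labelled library, while Rps27 and Rpl12 take larger parts in T cell-like cells.

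The proteins of the stalk, which recruits translation factors to the large subunit, did not share one order. Rplp0 took 24.6 per 1000 in neutrophil-like and 11.3 in B cell-like vehicle cells of the liver-labelled library, and 22.2 and 14.0 in the spleen-labelled library. Rplp1 took 26.1 in T cell-like and 15.4 in neutrophil-like cells, and 21.8 and 13.7. Rplp1 thus took its smaller part in the class where Rplp0 took its larger one.

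The divergent copies were minor parts of the total. Rps27l, the copy of Rps27 known as a target of p53, was at 76.0 CPM in neutrophil-like, 131 CPM in T cell-like and 556 CPM in monocyte-like vehicle cells of the liver-labelled library, and at 166, 237 and 353 CPM in the spleen-labelled library. Its part of the total in the liver-labelled library was 2.54 per 1000 in monocyte-like and 0.335 in T cell-like cells, the opposite lean to that of Rps27 itself, at 9.34 and 21.7. Rpl36al, a copy of Rpl36a, showed the same lean, at 5.85 per 1000 in monocyte-like and 2.78 in T cell-like cells, against 5.29 and 5.85 for Rpl36a. In the spleen-labelled library Rpl36al was at 5.41 and 3.31 and Rpl36a at 4.95 and 4.66, so both leaned the same way there. Rpl22l1, a copy of Rpl22, was at 3.36 per 1000 in T cell-like and 1.61 in neutrophil-like cells of the liver-labelled library, and at 2.99 and 3.24 in the spleen-labelled library. Rps27rt, a retrotransposed copy, and Rps27 are close in sequence, so their counts may share reads.

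Most UMIs of Rpl3l were in neutrophil-like cells. Of its 283 UMIs in vehicle cells of the liver-labelled library, 253 were there (21.3 CPM), 17 in monocyte-like cells (5.04 CPM), 7 in granulocyte progenitor-like cells (1.91 CPM) and 5 in macrophage-like cells (21.0 CPM, interval 6.81 to 48.9). T cell-like and B cell-like cells had 0, which allows up to 1.24 and 1.76 CPM by the exact interval. The spleen-labelled library had 51 of 57 UMIs in neutrophil-like cells (17.1 CPM), 4 in monocyte-like cells and 0 in T cell-like and B cell-like cells, which allows up to 14.1 and 34.0 CPM. Rpl3 itself had the reverse order, with 184 CPM in neutrophil-like and 3217 CPM in T cell-like cells of the liver-labelled library.

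Over all assigned cells, the high dose group of the liver-labelled library had a larger share than the others, and the cell types in it differed. The share was 16.3% in vehicle, 16.8% in low dose and 24.8% in high dose cells, log2 ratios to vehicle of 0.04 and 0.60. Neutrophil-like cells were 45.8%, 40.3% and 9.26% of the cells of these groups, and the T and B cell-like cells together 36.1%, 44.1% and 68.4%. With the classes weighted as in vehicle, the shares were 16.3%, 15.7% and 16.5%. The high dose group thus lay close to vehicle once the make-up was held.

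The spleen-labelled library gave 16.7%, 15.2% and 17.3% over all assigned cells, with log2 ratios of -0.13 and 0.05. Neutrophil-like cells were 44.0%, 47.7% and 18.03% of the cells, and the T and B cell-like cells 11.1%, 13.6% and 28.8%. Weighted as in vehicle, the shares were 16.7%, 14.8% and 15.9%. Without the 20 most abundant genes the high dose ratio changed sign, to -0.029.

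**Figure D3:**
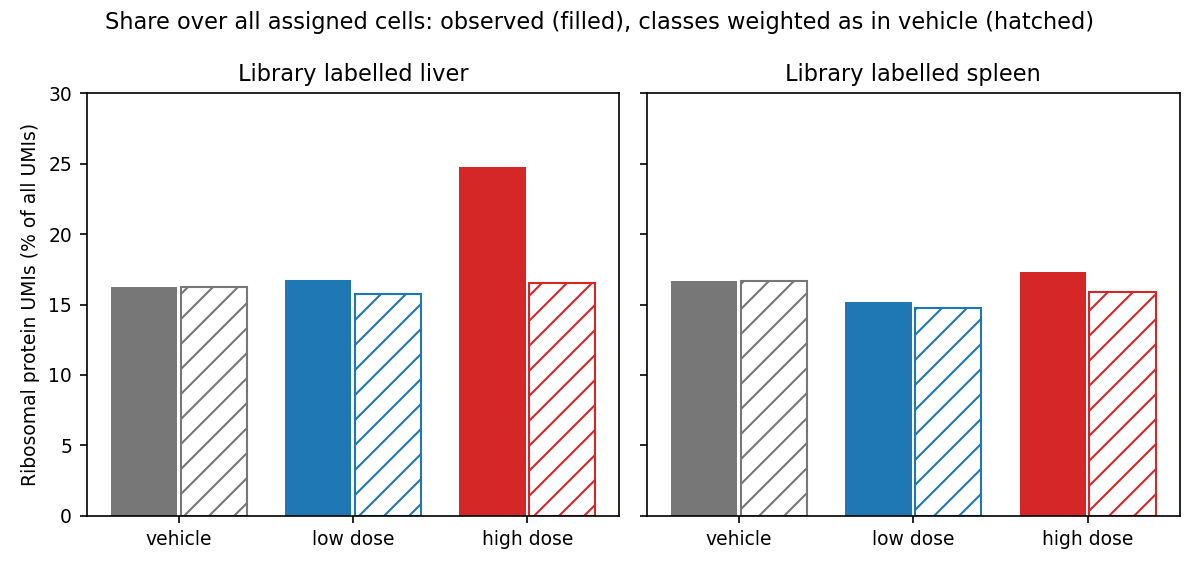
Ribosomal protein share of all UMIs (vertical axis, percent) over all assigned cells of each group, as observed (filled bars) and with the classes weighted as in the vehicle group (hatched bars). In the liver-labelled library the high dose bar stands at 24.8% as observed and at 16.5% under the vehicle weights.

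At the low dose the ribosomal protein genes were lower together in neutrophil-like cells of both libraries. The share was 5.45% in vehicle (1422 cells) and 4.43% in low dose cells (1287) of the liver-labelled library, and 9.22% (362) and 6.39% (621) in the spleen-labelled library, log2 ratios of -0.30 and -0.53. None of 84 members was higher by that fold in either library (5.52% and 15.2% of all genes tested were). In the liver-labelled library 32 of 84 were lower (20.3% of all genes), and in the spleen-labelled library 79 of 84 (24.5%). The median over members was -0.30 and -0.56, against -0.10 and -0.07 over all genes tested. Both subunits moved alike, with medians of -0.31 for large-subunit and -0.28 for small-subunit members in the first library and -0.55 and -0.58 in the second.

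With 79 of 84 members lower in the spleen-labelled library, an overlap is nearly fixed by that count. The 32 members lower in the liver-labelled library were all among them, that is 100% of the shorter list and 40.5% of the longer one. Among them Rpsa went from 1524 to 1051 CPM and from 2958 to 1836 CPM. Rps2 went from 386 to 257 CPM and from 931 to 577 CPM, and Rpl12 from 295 to 225 CPM and from 648 to 393 CPM. The stalk protein Rplp1 went from 839 to 619 CPM and from 1260 to 769 CPM, and Rplp2 from 742 to 551 CPM and from 1089 to 699 CPM. Rpl22l1 went from 87.6 to 60.7 CPM and from 299 to 181 CPM, and Rpl31, near the exit of the peptide tunnel, from 183 to 145 CPM and from 322 to 195 CPM. Each of these ratios lay below that of the class share in the same library, which in the liver-labelled library was fixed by the fold that selected these genes.

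A few members stood apart from this difference. Rps9 was at 2687 CPM in vehicle and 2685 CPM in low dose neutrophil-like cells of the spleen-labelled library, a log2 ratio of -0.0013 (95% interval -0.043 to 0.041), and at 3063 and 2773 CPM in the liver-labelled library. Its part of the ribosomal protein total therefore went from 29.1 to 42.01 per 1000 in the spleen-labelled and from 56.2 to 62.5 in the liver-labelled library. In granulocyte progenitor-like vehicle cells of the spleen-labelled library the part of Rps9 was 14.4. The cluster led by Cebpe, with 5 raised granulocyte progenitor markers, held 67 of 362 vehicle and 54 of 621 low dose neutrophil-like cells there. Whether this mix bears on the values of Rps9 was not tested. Rps27 differed by less than the class share did, from 793 to 682 CPM and from 761 to 682 CPM. Rpl3l was at 21.3 and 21.1 CPM in the liver-labelled and at 17.1 and 15.5 CPM in the spleen-labelled library, and both intervals held 0. Rpl7l1, a homolog of Rpl7, was at 34.1 and 34.0 CPM in the former and at 46.8 and 37.1 CPM in the latter, where its ratio of -0.33 was past the fold with an interval that held 0.

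The lower share was seen inside the neutrophil-like clusters and not just over them. The share was lower at low dose in 5 of 5 clusters of the liver-labelled library, with log2 ratios of -0.56 to -0.12, and in 5 of the 5 clusters of the spleen-labelled library with at least 20 cells in both groups, with ratios of -0.59 to -0.044. In the cluster led by Prok2 of the first library it was 4.36% in vehicle and 2.96% in low dose cells, and in the cluster led by Il1b of the second 4.61% and 3.05%. The cluster led by Cebpe in the spleen-labelled library, which held 6 raised neutrophil and 5 raised granulocyte progenitor markers, differed least, at 14.1% and 13.7%. With the clusters weighted as in vehicle, the class was at 5.45% and 4.72% in the liver-labelled library and at 9.22% and 8.31% in the spleen-labelled library, a smaller difference than the observed one in both. In the latter the observed values were 9.22% and 6.39%. The weights were the vehicle UMIs of each cluster. Its cluster led by Cebpe, with a median of 19650 UMIs over all groups and the ratio of -0.044, held 67 of 362 vehicle and 54 of 621 low dose cells. How much of the difference went with the mix of clusters was not tested. The member counts and CPM values given above were not weighted in this way. One cluster of the latter, led by Bcl2l15, held 120 low dose cells of 125, and without it the ratio was -0.43. Over 10 changed settings, among them leaving out the cluster led by Cebpe, the ratio in that library lay between -0.54 and -0.42. The median UMIs per cell moved in opposite directions between vehicle and low dose, from 4352.5 to 5724 in the liver-labelled library and from 4921 to 4276 in the spleen-labelled library. Within a class, the share of ribosomal protein UMIs and the UMIs of a cell had a Spearman correlation of -0.075 over 2907 neutrophil-like cells of the first library and 0.43 over 1139 of the second, where both measures come from the same UMIs. The part of depth in these ratios was not tested.

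**Figure D4:**
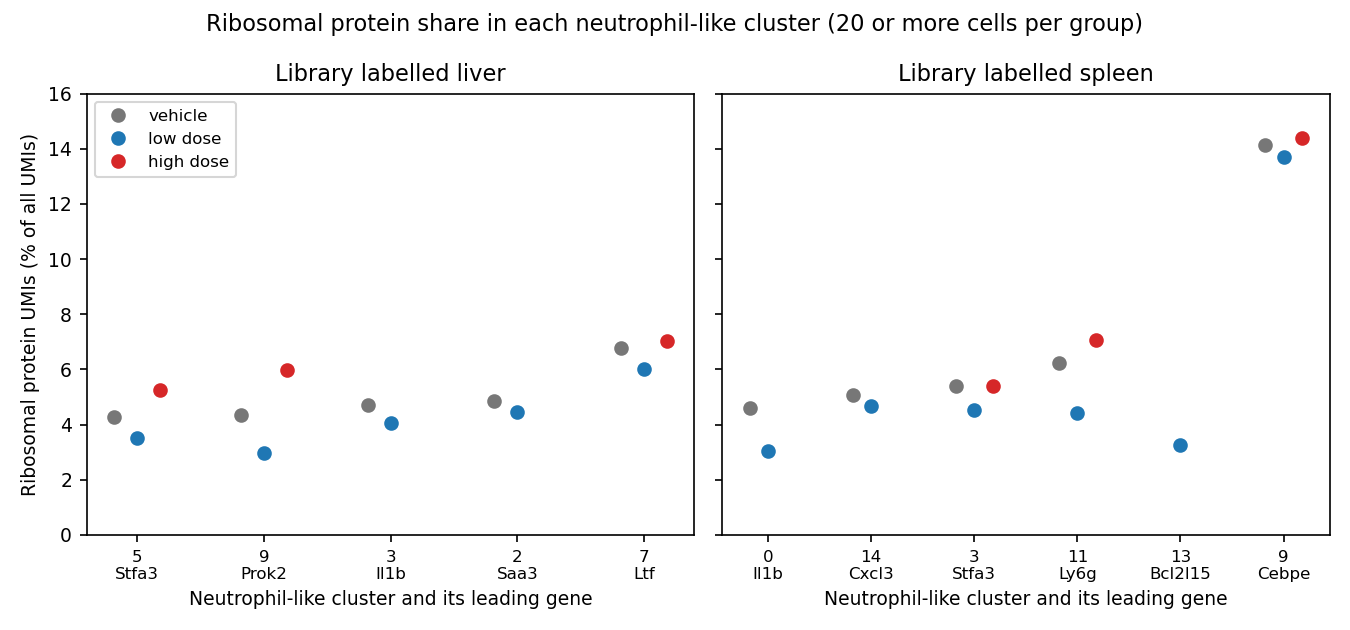
Ribosomal protein share of all UMIs (vertical axis, percent) in each neutrophil-like cluster, named by its number and leading gene, with 1 point for each group that has at least 20 cells. In every cluster with both points the low dose point lies below the vehicle point, from 4.36% to 2.96% in cluster 9 of the liver-labelled library, and the cluster led by Cebpe stands near 14% in all groups.

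At the high dose the neutrophil-like cells were few and deep. There were 198 in the liver-labelled library and 156 in the spleen-labelled library, with median UMIs of 18650.5 and 14205.5, against 4352.5 and 4921 in vehicle. Their share was 6.02% and 9.51%, log2 ratios of 0.14 and 0.04. The former was 0.065 with the dominant hashtag as the call of groups, and the latter was 0.29 as a mean over cells and 0.099 without the cluster led by Cebpe. In the liver-labelled library 15 of 84 members were higher (7.28% of all genes tested) and 6 lower (51.2%), with a median of 0.13 for members and -0.34 over all genes. The spleen-labelled library had 1 higher (16.7% of all genes) and 2 lower (16.7%), with medians of 0.01 and 0.02. Without its cluster led by Cebpe 13 members were past the fold, and the share over all genes was not computed in that setting. The clusters that held these cells differed too, since the clusters of the first library led by Saa3 and Il1b had 648 and 345 of its 1422 vehicle cells but 9 and 2 of its 198 high dose cells. In the 3 clusters with at least 20 cells in both groups the share was higher at high dose, by log2 ratios of 0.05 to 0.45. In the spleen-labelled library it was higher in 2 of 3 and about equal in the third (-0.0042 to 0.18). Weighted by vehicle clusters the class was at 5.65% and 9.26%.

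The largest high dose ratios among members with at least 200 UMIs included those of Rpsa, Rps2, Rpl12 and Rpl4 in both libraries. In neutrophil-like cells of the liver-labelled library Rpsa was at 1524 CPM in vehicle, 1051 in low dose and 2550 in high dose cells (high dose log2 ratio 0.74, interval 0.71 to 0.78). Rps2 was at 386, 257 and 621 CPM (0.68), Rpl12 at 295, 225 and 445 CPM (0.59), and Rpl4, a core protein of the large subunit, at 131, 114 and 191 CPM (0.54). The spleen-labelled library had smaller high dose ratios for the same genes, 0.28 for Rpsa (2958, 1836 and 3596 CPM), 0.27 for Rps2 (931, 577 and 1125 CPM), 0.22 for Rpl12 and 0.26 for Rpl4. The same vehicle cells entered both dose comparisons, so the values of the 2 doses are not independent of each other.

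Of the 3 stalk genes, 2 were higher by the fold at the high dose in the liver-labelled and 1 in the spleen-labelled library. Of all genes tested, 7.28% and 16.7% were, and 3 genes are too few to set against these shares. Rplp0 was at 1340, 1102 and 1864 CPM in vehicle, low and high dose cells of the liver-labelled library and at 2051, 1441 and 2367 CPM in the spleen-labelled library, with high dose log2 ratios of 0.48 and 0.21. Rplp1 was at 839, 619 and 1177 CPM and at 1260, 769 and 1640 CPM, with log2 ratios of 0.49 and 0.38, and was the one member past the fold upwards in both. Rplp2 was at 742, 551 and 875 CPM and at 1089, 699 and 1156 CPM (0.24 and 0.087) and passed the fold in neither.

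Other members were lower at the high dose. In the liver-labelled library Rps27l had 76.0 CPM in vehicle and 38.6 CPM in high dose cells (-0.98, interval -1.23 to -0.73), and at 166 and 149 CPM in the spleen-labelled library (-0.15, interval -0.35 to 0.049). Rps27 was at 793 and 593 CPM (-0.42) and at 761 and 690 CPM (-0.14), and Rpl37, a zinc-binding protein of the large subunit, at 787 and 624 CPM (-0.34) and at 1162 and 1029 CPM (-0.18). Rps27rt was at 27.8 and 16.9 CPM (-0.71) in the liver-labelled library, on 68 high dose UMIs. Rpl30 of the large subunit was at 552 and 464 CPM and at 984 and 864 CPM (-0.25 and -0.19). Rps19bp1 and Rpl3l passed the fold downwards in both libraries, on 16 and 19 high dose UMIs for Rps19bp1 and 67 and 30 for Rpl3l, and all 4 intervals held 0. Rps27l, Rps27rt, Rps27 and Rpl37 thus passed the fold downwards in the liver-labelled library and not in the spleen-labelled one, a difference that was not tested. Of all genes tested, 51.2% were lower by the fold in the former and 16.7% in the latter, with medians of -0.34 and 0.02. Rpl37 in the liver-labelled library thus stood at the median of all genes.

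**Figure D5:**
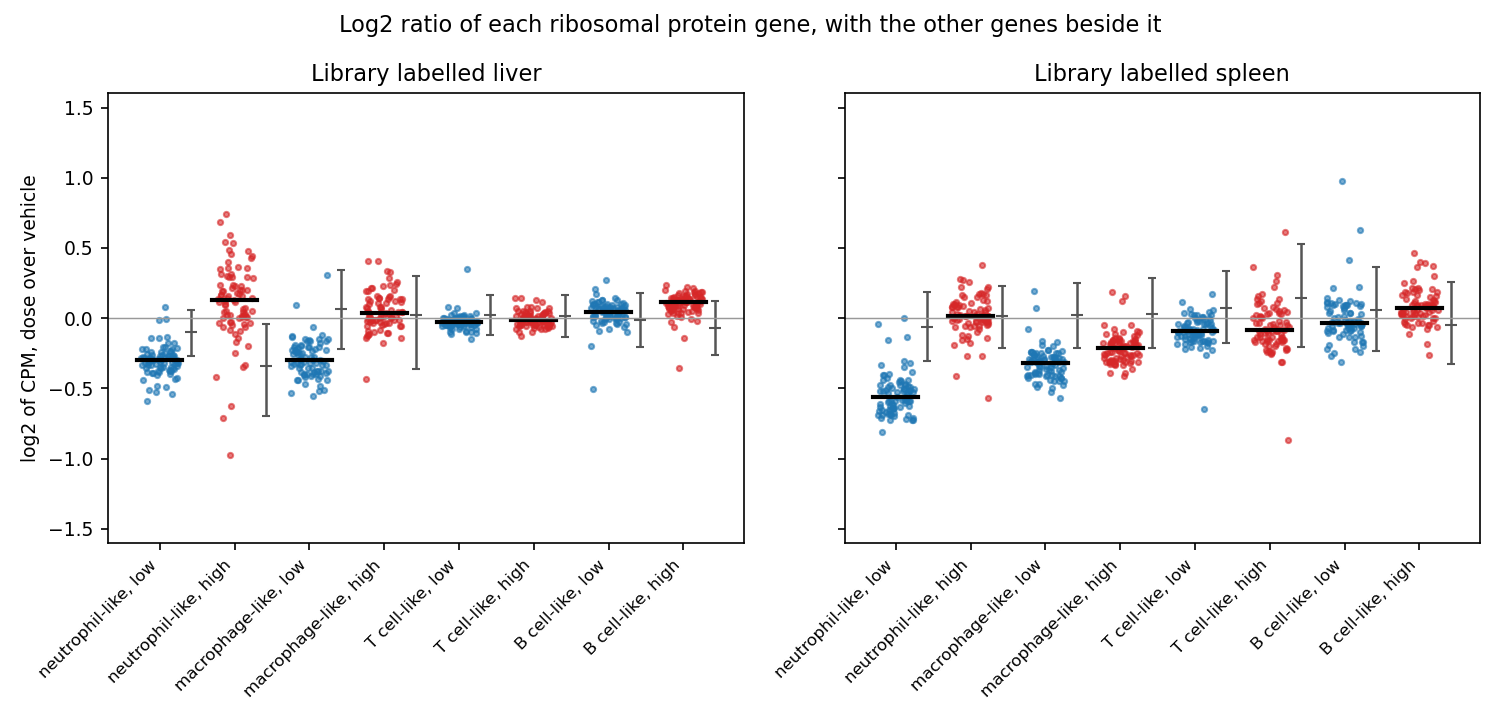
Log2 ratio of CPM, dose over vehicle (vertical axis), of each ribosomal protein gene tested (points) in 4 classes of each library, with the median of the members as a black bar and the quartiles of the other genes as a grey bar beside it. In low dose neutrophil-like and macrophage-like cells most points lie below 0 in both libraries, with member medians of -0.30 to -0.56. The member medians of the T and B cell-like cells lie between -0.09 and 0.11. In the spleen-labelled library single points of these classes reach -0.87 (T cell-like, high dose) and 0.98 (B cell-like, low dose).

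Macrophage-like cells also had a lower share at the low dose in both libraries. Their share was 25.8%, 21.0% and 26.8% in vehicle, low and high dose cells of the liver-labelled library (63, 57 and 63 cells) and 17.6%, 13.9% and 15.1% in the spleen-labelled library (57, 111 and 123 cells). At the low dose the log2 ratios were -0.30 and -0.33, and 35 of 81 members (20.0% of all genes tested) and 41 of 83 (17.0%) were lower by the fold. The member medians were -0.30 and -0.32, against 0.04 and 0.02 over all genes tested. Rpl10a, the protein of the other stalk of the large subunit, went from 2238 to 1547 CPM and from 1896 to 1318 CPM, and Rpl22 from 1857 to 1305 CPM and from 1350 to 962 CPM. The class of the spleen-labelled library joined a cluster led by Arg1 (51, 86 and 84 cells) with shares of 18.03%, 14.7% and 16.3% and a cluster led by Marco and Clec4f (6, 25 and 39 cells) with 10.1%, 9.75% and 11.6%. Within them the low dose ratios were -0.29 and -0.055 and the high dose ratios -0.15 and 0.20, so the mix of clusters moves with the class value. Median UMIs in the liver-labelled library were 1602 in vehicle, 2846 in low dose and 857 in high dose macrophage-like cells.

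Dendritic-like and monocyte-like cells moved in the same direction by less. Dendritic-like cells had 23.9%, 20.9% and 22.9% in the liver-labelled library, on 23, 15 and 6 cells, and 22.7%, 18.9% and 23.0% in the spleen-labelled library, on 72, 83 and 42 cells. The mitochondrial genome supplied 5.49%, 8.08% and 10.2% of the UMIs of the latter, with median UMIs of 1116, 2372 and 8022, and the part of these in the shares was not tested. Monocyte-like cells had 21.9%, 20.4% and 20.5%, and 19.7%, 18.1% and 16.9%. Low dose log2 ratios were -0.19 and -0.26 for the former and -0.10 and -0.12 for the latter. All 4 values were below 0, and those of the monocyte-like cells were nearer to it than those of the neutrophil-like and macrophage-like cells. An unnamed cluster of 195 cells in the liver-labelled library shared Ckb, H2-Aa and H2-Eb1 with the dendritic-like cluster among its leading genes. Its share was higher at the low dose, at 22.6% in 76 vehicle and 25.3% in 48 low dose cells (0.17). The value of dendritic-like cells in that library thus depends on which clusters are named. Endothelial-like cells of the spleen-labelled library had -0.36, on 33 vehicle and 104 low dose cells. There, plasmacytoid dendritic-like cells had -0.22 (5 and 8 cells) and hepatocyte-like cells -1.07 (57 and 27 cells). Without mitochondrial genes in the total, the hepatocyte-like shares were 16.9% in vehicle and 10.9% in low dose cells. Granulocyte progenitor-like cells went the other way, at 0.096 in the liver-labelled and 0.034 in the spleen-labelled library. A lower share was thus neither limited to the classes above nor common to every class.

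T cell-like cells of the liver-labelled library kept nearly the same share in all groups. It was 38.9% in vehicle (593 cells), 38.3% in low dose (859) and 38.5% in high dose cells (1019), and the high dose log2 ratio was -0.017. No member passed the fold in either direction among 83 at the high dose (11.4% of all genes tested were higher and 8.78% lower), and the member ratios lay between -0.13 and 0.14. At this depth 39 of the 83 member intervals held 0.

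The T cell-like cells of the spleen-labelled library were made of 2 clusters that moved in opposite directions. The class was at 24.4%, 22.8% and 22.9% (59, 141 and 183 cells). At the high dose 2 of 83 members were higher (36.8% of all genes tested) and 1 lower (19.3%). Rps27l stood at 237 and 363 CPM (0.62) and Rpl31 stood at 603 and 775 CPM (0.36), while Rps27rt, the one lower by the fold, was at 179 and 98.4 CPM (-0.87) and Rps27 at 3853 and 3100 CPM (-0.31). The cluster led by Gzma, in which NK cell genes stood beside T cell genes among the leading ones, had 26.4%, 23.7% and 22.1%, and that led by Il7r 21.0%, 21.3% and 25.3%. Without the former, the high dose ratio was 0.27, so the class value has no fixed direction. In that setting 36 members were past the fold, and the share over all genes was not computed.

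B cell-like cells had a slightly higher share at the high dose. Their share was 31.3%, 32.4% and 34.0% in the liver-labelled library (528, 549 and 444 cells) and 30.9%, 30.3% and 32.8% in the spleen-labelled library (32, 36 and 66 cells), high dose log2 ratios of 0.12 and 0.08. The former was 0.014 as a mean over cells and the latter 0.024 with the dominant hashtag. In the first library 0 of 83 members were higher by the fold (10.2% of all genes tested) and 1 lower (19.3%), and in the second 5 of 80 higher (20.0%) and 0 lower (23.4%). The one lower member was Rps19bp1, at 40.02 and 31.2 CPM on 84 and 53 UMIs. Rplp1 had the largest ratio in the liver-labelled library among members with at least 200 UMIs, at 0.24. In the spleen-labelled library Rpl22l1 was at 1014 and 1336 CPM (0.40), Rpl31 at 599 and 787 CPM (0.39) and Rps20, of the small-subunit head, at 6367 and 8249 CPM (0.37), and Rps2 (0.37) and Rpl29 (0.47, on 19 and 74 UMIs) were the others past the fold. The class in the liver-labelled library was uneven. It held 1 cluster of 295 cells with a median of 788 UMIs, 3.35% ribosomal protein UMIs and 19.7% mitochondrial UMIs, 1 cluster with 147 low dose cells of 152, and 1 led by Vpreb3 and Vpreb1 of early B cells with 46 vehicle cells of 47. Without the last pair the low dose ratio went from 0.048 to -0.045.

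Other genes of the translation machinery moved with the ribosomal protein genes at the low dose in neutrophil-like cells to different extents. Of the initiation and elongation factors listed, 6 of 18 were lower by the fold in the liver-labelled library and 13 of 18 in the spleen-labelled library, where 20.3% and 24.5% of all genes tested were lower. Genes of ribosome biogenesis, which process and assemble the ribosome in the nucleolus, were lower in 10 of 20 and 8 of 14, with 1 higher in each. Genes of the mitochondrial ribosome (Mrpl and Mrps) were lower in 23 of 71 and 37 of 66, with 1 higher in the latter. The 13 genes of the mitochondrial genome were lower in 8 and 0. Regulators of ribosome production were lower in 5 of 9 and in 0 of 7, with 1 higher in the latter. The lists of translation factors, ribosome biogenesis and mitochondrial ribosomal proteins thus had larger shares of lower genes than all genes tested in both libraries, while the mitochondrial genome and the regulators had 0 lower in the spleen-labelled library. Whether the libraries differed in this was not tested. At the high dose in the liver-labelled library, 14 of 19 biogenesis genes and 38 of 69 mitochondrial ribosomal protein genes were lower by the fold, where 51.2% of all genes tested and 6 of 84 ribosomal protein genes were.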

How the data were processed

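The authors aligned the reads to mm10 and deposited raw UMI counts per gene and barcode, with the hashtag counts in the same matrices, made with Cell Ranger (5.0.0 in the matrix header, 6.0.0 in the submitters' processing notes). From these counts, hashtags were assigned with HTODemux in Seurat (positive quantile 0.99), and barcodes with several or no hashtags were left out. Doublets within a hashtag group remained. No other filter on cells was applied, and 0 columns were left without a sample. Counts were transformed with SCTransform, and clusters were taken from 30 principal components at resolution 0.8, with the ribosomal protein genes left out of the variable genes. A cluster was named from at least 3 raised markers of a list, and markers set only the names. Counts were summed per library, class and group; intervals are exact (Clopper-Pearson, and conditional binomial for ratios) at 95%. Members named in the comparisons of doses were those with the 5 highest and 5 lowest ratios among members with at least 200 UMIs, the stalk genes, the divergent copies and the members with the widest range across classes; others named were chosen after their values were seen. The members, lists and comparisons were chosen with earlier results of these data known. Gene positions are from GENCODE for mm10. The code was tested on simulated data. R, Seurat and Python versions were 4.3.3, 5.3.0 and 3.11.15.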

Additional observations from a re-analysis of the deposited data

Results flagged for a closer look

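Some results had opposite directions in the libraries, and the difference between the libraries was not tested, since each group was 1 pooled sample in each. The share of ribosomal protein UMIs over all assigned cells at the low dose had a log2 ratio to vehicle of 0.044 in the liver-labelled library and -0.13 in the spleen-labelled library. The B cell-like cells at the low dose gave 0.048 and -0.031, where the clusters differed between groups as described above. The macrophage-like cells at the high dose gave 0.056 and -0.22, with median UMIs of 857 in high dose and 1602 in vehicle cells of the liver-labelled library. The latter value joins a cluster led by Arg1 at -0.15 and one led by Marco and Clec4f at 0.20, which held 6 of 57 vehicle and 39 of 123 high dose cells. Dendritic-like cells at the high dose gave -0.064 and 0.023, on 6 and 42 high dose cells. Rpl8, a core protein of the large subunit, was at -0.098 and 0.14 in T cell-like cells at the high dose, in classes made of different clusters. In the spleen-labelled library the T cell-like value itself changed direction without the cluster led by Gzma.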

How the results depend on the processing

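The shares and the counts of members past the fold were recomputed with 1 choice changed at a time. The cause of the changes was not tested. No paired analysis was made, because each group is 1 pooled sample in each library. Whether both libraries hold cells of the same mice is not given, so their values may not be independent. Values are log2 ratios of the share to vehicle, liver-labelled library first. All cells, high dose (0.60 and 0.05): 0.57 and 0.030 with the dominant hashtag, 0.61 and 0.096 with a filter on cells (200 genes, 10% mitochondrial UMIs), 0.61 and 0.092 without mitochondrial genes, 0.42 and -0.029 without the 20 most abundant genes, 0.68 and 0.21 as a mean over cells. Neutrophil-like, low dose (-0.30 and -0.53): -0.33 and -0.42 with the dominant hashtag, -0.24 and -0.48 without the 20 genes, -0.29 and -0.49 at resolution 0.4, -0.30 and -0.50 with members among the variable features; in the second library also -0.51 with the filter, -0.54 as a mean, -0.49 at resolution 1.6, and, chosen after seeing the data, -0.43 without clusters of 1 hashtag group and -0.47 without the cluster led by Cebpe. Neutrophil-like, high dose (0.14 and 0.04): 0.065 and 0.022 with the dominant hashtag, 0.17 and 0.29 as a mean, 0.23 and 0.073 at resolution 0.4, 0.13 and 0.068 with members among the variable features, 0.23 without the 20 genes in the first, 0.073 at resolution 1.6 and 0.099 without the cluster led by Cebpe in the second. T cell-like, high dose (-0.017 and -0.092): -0.013 and -0.18 with the dominant hashtag, -0.023 and -0.14 without the 20 genes; in the second -0.21 with the filter, -0.13 without mitochondrial genes, -0.024 as a mean, -0.24 and -0.25 at resolutions 0.4 and 1.6, -0.25 with members among the variable features, and 0.27 without the cluster led by Gzma, which also moved the low dose value from -0.10 to 0.024. B cell-like, high dose (0.12 and 0.08): 0.079 and 0.024 with the dominant hashtag, 0.15 and 0.11 with the filter, 0.014 and 0.17 as a mean; 0.076 and 0.11 at resolutions 0.4 and 1.6, 0.078 without clusters of 1 group and 0.14 without the mitochondrial cluster in the first; 0.11 without mitochondrial genes and 0.11 without the 20 genes in the second. B cell-like, low dose, changed sign to -0.13 and 0.022 as a mean, and to -0.045 without clusters of 1 group in the first. T cell-like over neutrophil-like cells (2.84 and 1.40): 2.87 and 1.48 without mitochondrial genes, 2.93 and 1.76 as a mean, 1.55 with the filter in the second. At a fold of 1.5 the members past it were 1 and 38 in neutrophil-like cells at low dose (32 and 79 in the main setting), 6 and 0 at high dose (21 and 3), and 0 and 0 in B cell-like cells at high dose (1 and 5). Other counts that moved were 15 without the 20 genes for the first of these, 1 with a minimum of 200 UMIs and 13 without the cluster led by Cebpe for neutrophil-like high dose cells of the second library, 1 at a minimum of 1 UMI for T cell-like cells of the first, 5 with the dominant hashtag, 15 with the filter and 36 without the cluster led by Gzma (3) for those of the second, and for B cell-like cells 0 with 200 UMIs, 0 with the filter and, in the second library, 3 with the dominant hashtag. Of all recomputed values of the high dose, neutrophil-like and between-class results, 64 stayed within the counting interval, or within 1.5 times for counts. Another 76 moved beyond it and 2 reversed. Of the remaining low dose shares and low dose counts of members, 35 stayed, 33 moved and 4 reversed. The ratios of single members were not recomputed. For the counts of members, the share over all genes was not computed in the changed settings, so they cannot be set against a background. With 1 pool a group, depth sets the width of the intervals, and the spread between mice is unknown.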
